A study of Homo sapiens with 6 samples.

Results

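The ZBTB genes were taken as all genes of the deposited count table whose name is ZBTB followed by a number and at most 1 letter, which gave 41 genes of 58735 in the table. They were followed in 6 RNA-seq libraries labelled as the human neuroblastoma line BE(2)-C, 3 from ACSS2-deficient cells (shACSS2) and 3 from control cells (NS, labelled wild type). Per the labels' protocols, both groups had been infected with a lentivirus and put through puromycin selection as stable lines: the shACSS2 cells carried a hairpin RNA against ACSS2, the NS cells a non-silencing hairpin, and both were grown in DMEM with calf serum. The titles write the knockdown as siACSS2 and the treatment text names the line shNgBR in 1 place, so the reagent is described in 3 ways. Clonality of the lines and the origin of the replicates are details not given in the sources used here. Each p-value thus covers only the spread among these libraries, which may be technical.

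ZBTB proteins are transcription factors with a BTB domain at the amino end and C2H2 zinc fingers at the carboxyl end. The fingers read DNA, and the BTB domain pairs the proteins and recruits corepressors such as NCOR1 and BCOR with histone deacetylases, or the CUL3 ubiquitin ligase. Many members are known from blood cell fate decisions, some bind methylated DNA, and ZBTB17 (MIZ-1) is a partner of MYC family proteins, MYCN included. ACSS2 makes acetyl-CoA from acetate, a substrate of the histone acetylation that deacetylase complexes remove.

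Library totals ran from 16617885 to 20831599 counts, and each library detected 22960 to 24903 features. ACSS2 had 75, 84 and 110 counts in the shACSS2 libraries, against 366, 387 and 438 in the NS libraries. That is 5.32 ± 0.762 CPM (counts scaled to library size, with TMM composition factors) in shACSS2 and 20.5 ± 0.324 CPM in NS (SD, n = 3 each). In edgeR the log2 fold change was -1.94 with an SE of 0.145 (adjusted p = 1.95e-06). Among the markers of the labelled line, PHOX2A and TH had 0 counts in all 6 libraries. MYCN, known to be amplified in BE(2)-C, had 0.787 ± 0.308 CPM in shACSS2 and 1.75 ± 0.313 CPM in NS (SD, n = 3 each). HAND2, another marker, was detected in all 6 libraries. It had 3.66 ± 1.01 CPM in shACSS2 and 2.88 ± 0.481 CPM in NS (SD, n = 3 each). The levels of PHOX2A, TH and MYCN go against the label, and the cells are called here by their library labels. In bulk RNA, fewer cells of a type and less RNA per cell cannot be told apart.

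The first shACSS2 library stood apart by base composition. The deviation of a gene's log2 level from its group mean, set against GC content over 16201 genes, gave a Spearman correlation of -0.60 in shACSS2 replicate 1, 0.47 in replicate 2 and 0.39 in replicate 3. In the NS libraries it was 0.11, -0.09 and 0.00. Values without that library are given for several members whose fold change depended on it.

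Nearly all ZBTB genes were expressed, mostly at low to middle levels. Per kilobase of annotated exon, 34 of 41 members averaged at least 1 CPM over the 6 libraries, 17 at least 5 and 4 at least 10, with a median of 4.35 against 4.32 over all genes tested. ZBTB33 (Kaiso, which binds methylated DNA) led with 22.4 ± 1.90 CPM per kilobase (SD, n = 6). ZBTB18 (RP58, a transcriptional repressor that acts in neuronal development) followed with 20.2 ± 1.34, and the ranges of these genes overlapped. ZBTB12, next with 12.4 CPM per kilobase, did not overlap ZBTB18. ZBTB7B followed with 10.0 and ZBTB5 with 7.76 CPM per kilobase. These means cover both groups: in the shACSS2 libraries ZBTB7B had 9.67, 13.1 and 11.8 CPM per kilobase and ZBTB12 had 9.0, 10.6 and 12.4, ranges that overlap. In the NS libraries ZBTB7B had 8.14 to 9.05 and ZBTB12 had 13.4 to 14.8 CPM per kilobase, with ZBTB12 above in all 3. At the low end stood ZBTB7C with 0.662, ZBTB16 (PLZF) with 0.407, ZBTB32 with 0.0617 and ZBTB20 with 0.0328 CPM per kilobase. The place of ZBTB20 rests on its 31872 annotated exon bases, 47.7% of which overlap the noncoding RNA AC093010.3 on the same strand. In CPM, ZBTB20 averaged 1.04 and ZBTB32 0.171. The place of ZBTB12 likewise rests on its 1875 annotated exon bases. In CPM it averaged 23.3, against 74.4 for ZBTB10, which has 10216 exon bases. Of the 40 pairs of neighbours in the order per kilobase, 36 overlapped in their range over the libraries, so most of the order is not resolved.

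**Figure D1:**
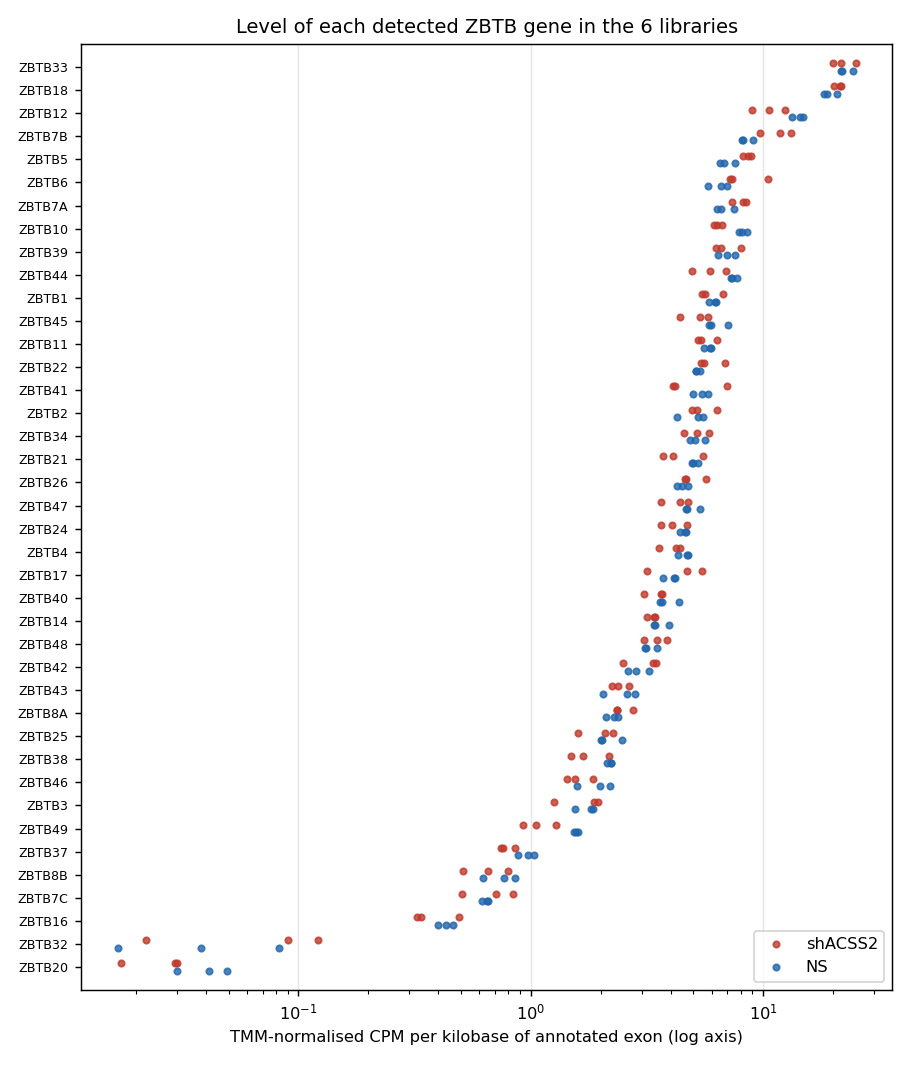
Level of each detected ZBTB gene in TMM-normalised CPM per kilobase of annotated exon (log axis), with 1 point per library and colours for shACSS2 and NS. ZBTB33 and ZBTB18 sit at the top, and in most genes the points of both groups overlap.

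Of the 41 members, 2 did not reach the test. ZBTB32, a factor of lymphocytes, had 4, 1 and 6 counts in the shACSS2 libraries, against 4, 2 and 1 in the NS libraries. ZBTB9 had 0 counts in all 6 libraries, which allows up to 0.0277 CPM over 108405728 counts (3 counts, counting error only). The handling of reads in overlapping exons is a setting not given in the sources used here, so a count of 0 for ZBTB9 does not show that the gene was silent.

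The ZBTB genes changed little between the groups. Of the 39 members tested, 1 rose in shACSS2 (ZBTB7B), 2 fell (ZBTB10 and ZBTB12) and 36 did not pass an adjusted p of 0.05 (edgeR quasi-likelihood test, Benjamini-Hochberg adjustment over 16210 genes). The share called was 7.69% of the members, against a background of 17.1% of all genes tested. With no filter on low counts, 2 members were higher and 3 lower, or 12.5% of 40 against 9.81% of all genes, so the order of the shares depends on the filter. Higher calls made up 7.48% and lower calls 9.64% of all genes. With library totals in place of TMM factors, 734 genes were higher and 2103 lower, against 1213 higher and 1563 lower with TMM, and the members' split was 1 higher and 3 lower. CPM of the groups did not overlap in 10 of the 39 members, or 25.6%, against 36.3% of all genes tested. An unadjusted p under 0.05 was found for 10 members, or 25.6%, against 32.7% of all genes tested.

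Fold changes of the family were small. The log2 fold changes ran from -0.65 for ZBTB20 to 0.45 for ZBTB7B, with quartiles of -0.20 and 0.11. Their median was -0.04, against 0.00 over all genes tested. The median size without sign was 0.16 for the members and 0.23 for all genes. Only ZBTB20 and ZBTB49 exceeded 0.5 in size, and neither passed the test. The summed ZBTB counts took 11.3, 10.5 and 10.9 of every 10000 counts in the shACSS2 libraries, against 12.1, 11.1 and 12.1 in the NS libraries, ranges that overlap. In TMM-scaled units the sum was 1116 ± 44.3 CPM in shACSS2 and 1150 ± 32.8 CPM in NS (SD, n = 3 each).

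**Figure D2:**
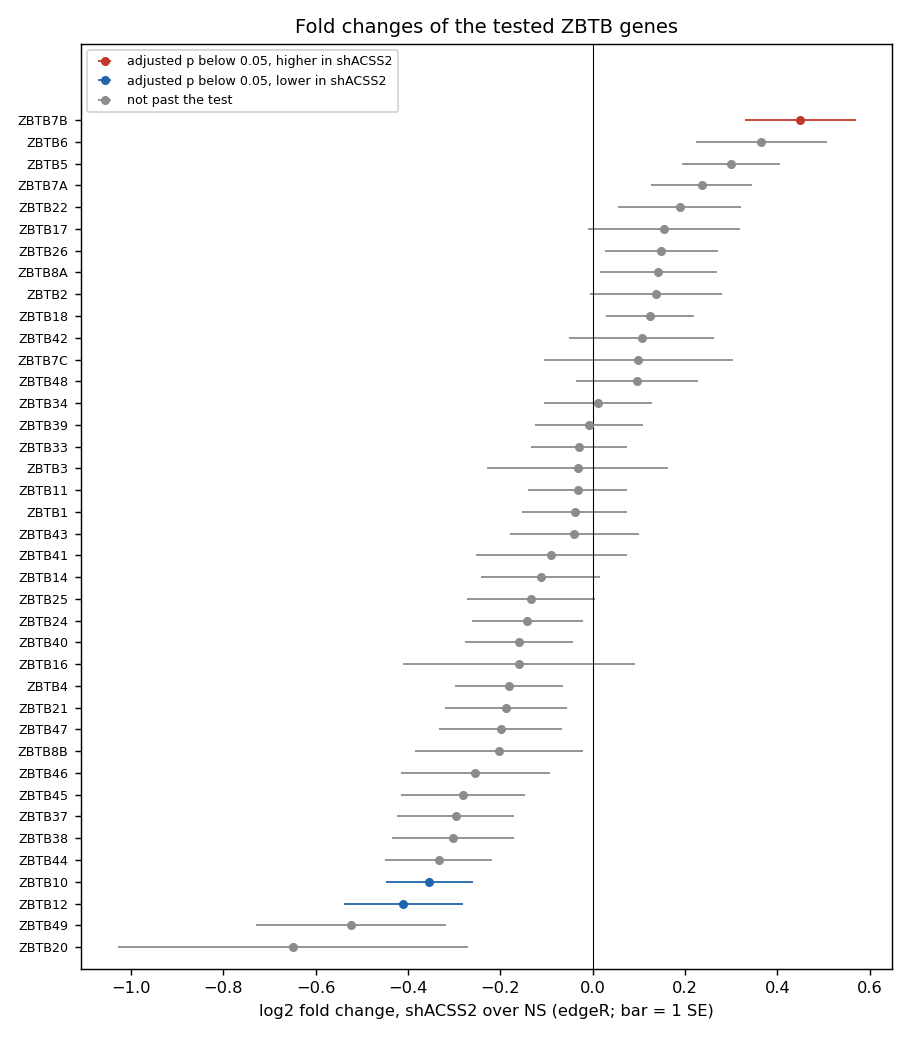
Log2 fold change of each of the 39 tested ZBTB genes, shACSS2 over NS, with a bar of 1 SE. Members past the test are marked: ZBTB7B on the right at 0.45, and ZBTB10 at -0.35 and ZBTB12 at -0.41 on the left.

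ZBTB10 had the smallest p among the members. It is known to repress SP transcription factor genes and to bind telomere variant repeats, and it lies at 80485619 to 80526265 on the plus strand of chromosome 8 (GENCODE v29, GRCh38). It had 63.0, 64.9 and 68.0 CPM in the shACSS2 libraries, against 87.4, 80.4 and 82.6 CPM in the NS libraries. Every shACSS2 value lay below every NS value, with means of 65.3 ± 2.57 in shACSS2 and 83.5 ± 3.60 in NS (SD, n = 3 each). This was a log2 fold change of -0.35 with an SE of 0.0941 (adjusted p = 0.018 in edgeR). It ranged from -0.38 to -0.32 with any 1 library left out, and was -0.23 with a correction for GC content and length (adjusted p = 0.0445). The call ended without shACSS2 replicate 2 (adjusted p = 0.0584), NS replicate 1 (0.115) or NS replicate 3 (0.0629).

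ZBTB7B rose. It encodes ThPOK, which directs T cells to the CD4 lineage, and lies on chromosome 1, 155002630 to 155018522, plus strand. It had 41.6, 56.6 and 51.0 CPM in the shACSS2 libraries, against 38.9, 35.0 and 35.3 CPM in the NS libraries. The groups did not overlap, but shACSS2 replicate 1 lay within 3 CPM of the highest NS library. Means were 49.7 ± 7.56 CPM in shACSS2 and 36.4 ± 2.19 CPM in NS (SD, n = 3 each), a log2 fold change of 0.45 with an SE of 0.119 (adjusted p = 0.0181 in edgeR). Without shACSS2 replicate 1 the log2 fold change was 0.56 with an adjusted p of 0.000419. Leaving out any other library ended the call, with adjusted p of 0.0813 and 0.0529 without shACSS2 replicates 2 and 3, and 0.0569, 0.0624 and 0.0868 without NS replicates 1, 2 and 3.

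ZBTB12 fell. It is encoded in the major histocompatibility complex region of chromosome 6, 31899607 to 31901992, minus strand. It had 16.9, 19.9 and 23.3 CPM in the shACSS2 libraries, against 27.8, 25.1 and 27.0 CPM in the NS libraries. No shACSS2 library reached the lowest NS library, with means of 20.02 ± 3.21 CPM in shACSS2 and 26.6 ± 1.38 CPM in NS (SD, n = 3 each). This was a log2 fold change of -0.41 with an SE of 0.129 (adjusted p = 0.0398 in edgeR). It ran from -0.53 to -0.30 with 1 library left out. The call held without shACSS2 replicate 3 (adjusted p = 0.0235) and ended without shACSS2 replicate 1 (log2 fold change -0.30, 0.059) or 2 (0.0899), and without NS replicate 1 (0.155), 2 (0.055) or 3 (0.126). C2, on the opposite strand, shares 141 exon bases with ZBTB12 and had 12 to 25 counts a library.

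**Figure D3:**
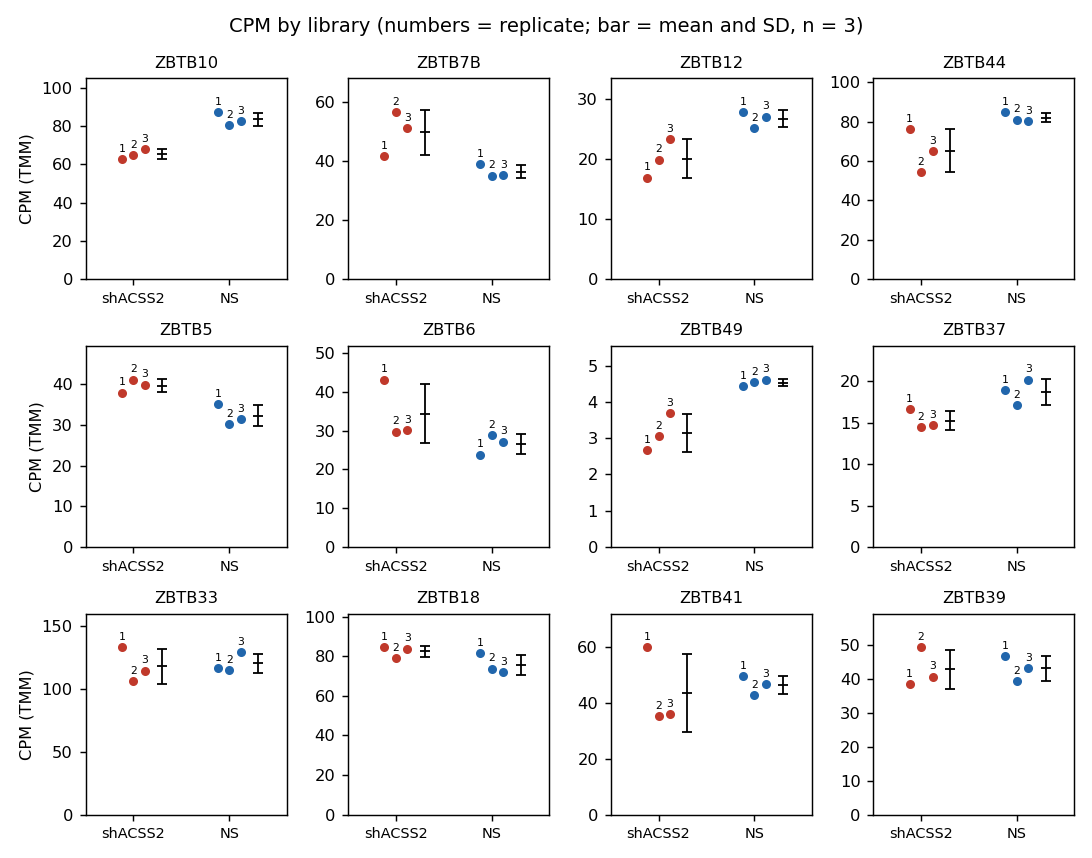
CPM of the leading ZBTB genes in each library, with the replicate number beside each point and the mean and SD as a bar (n = 3 each). The groups are apart in ZBTB10, ZBTB7B and ZBTB12, and the NS values of ZBTB7B lie closer together than its shACSS2 values.

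Of the members not past the test, ZBTB44 came nearest. It had 76.1, 54.2 and 65.1 CPM in the shACSS2 libraries, against 84.9, 81.0 and 80.3 CPM in the NS libraries (log2 fold change -0.33 with an SE of 0.115, adjusted p = 0.0572 in edgeR). The groups did not overlap, and the spread within shACSS2 was wider than within NS. Without shACSS2 replicate 1, ZBTB44 passed at -0.46 (adjusted p = 0.00161). ZBTB5, a repressor of the cell cycle inhibitor gene CDKN1A, had 37.9, 41.1 and 39.9 CPM in shACSS2, against 35.1, 30.1 and 31.5 CPM in NS (log2 fold change 0.30, edgeR adjusted p = 0.0636). ZBTB6 had 43.1, 29.7 and 30.1 CPM in shACSS2, against 23.8, 28.8 and 27.2 CPM in NS, with the first shACSS2 library far above the rest (0.37, edgeR adjusted p = 0.0867). Without that library the log2 fold change of ZBTB6 was 0.17 (adjusted p = 0.26). With the GC and length correction ZBTB6 passed at 0.37 (edgeR adjusted p = 0.00908), and with no count filter at 0.37 (0.0384). ZBTB49, an activator of CDKN1A, had 2.68, 3.06 and 3.70 CPM in shACSS2, against 4.44, 4.54 and 4.61 CPM in NS (-0.52, edgeR adjusted p = 0.0893, and -0.42 without shACSS2 replicate 1). ZBTB37 had 16.6, 14.4 and 14.7 CPM in shACSS2, against 18.9, 17.1 and 20.2 CPM in NS (-0.30, edgeR adjusted p = 0.115). Without shACSS2 replicate 1, ZBTB37 passed at -0.36 (edgeR adjusted p = 0.0421). With the GC and length correction ZBTB37 had -0.046 (adjusted p = 0.778) and ZBTB44 -0.20 (0.0581).

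By role, the members that bind methylated DNA gave 0 calls of 3, with 1 at an unadjusted p under 0.05 (ZBTB38). Over all genes tested the shares were 17.1% and 32.7%. Each role group holds few members, so its counts are descriptions and are not set apart from those shares. ZBTB33 had 133, 106 and 115 CPM in shACSS2, against 117, 115 and 129 CPM in NS (log2 fold change -0.03). For ZBTB4 it was -0.18 (edgeR adjusted p = 0.304) and for ZBTB38 -0.30 (0.12). ZBTB38 had 30.8 CPM in the first shACSS2 library, within the NS range, and 21.3 and 23.8 CPM in the others. Without shACSS2 replicate 1, ZBTB38 passed at -0.47 (adjusted p = 0.00378) and ZBTB4 had -0.095. With the GC and length correction ZBTB38 had -0.13 (adjusted p = 0.347) and ZBTB4 -0.10.

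In the ZBTB7 subfamily, 1 of 3 rose, where 7.48% of all genes tested were called higher. The others had the same sign, though ZBTB7C turned to -0.067 without shACSS2 replicate 2. ZBTB7A (LRF, a repressor of fetal globin and of glycolysis genes) had 42.0, 47.0 and 48.4 CPM in shACSS2, against 42.9, 36.1 and 37.7 CPM in NS (0.24, edgeR adjusted p = 0.144). Without shACSS2 replicate 1, ZBTB7A passed at 0.30 (edgeR adjusted p = 0.0301). ZBTB7C had 3.86, 6.42 and 5.43 CPM in shACSS2, against 4.73, 5.02 and 4.93 CPM in NS (0.10, and 0.28 without shACSS2 replicate 1).

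Of the members that act on cell cycle inhibitor genes, 0 of 4 passed, against 17.1% of all genes tested. An unadjusted p under 0.05 was found for 2 (ZBTB5 and ZBTB49), against 32.7% of all genes tested. ZBTB17 (MIZ-1) had 13.5, 23.2 and 19.9 CPM in shACSS2, against 17.5, 15.7 and 17.7 CPM in NS (log2 fold change 0.15, edgeR adjusted p = 0.557). Its first shACSS2 library was below every NS library and the others above. ZBTB2 had a log2 fold change of 0.14, which was 0.026 without shACSS2 replicate 1 and 0.085 with the GC and length correction. Without shACSS2 replicate 1, ZBTB5 and ZBTB17 passed (ZBTB17 at 0.35, adjusted p = 0.0437), and with the correction ZBTB5 and ZBTB49 passed.

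ZBTB7B, itself a factor of T cell fate, is counted with its subfamily and not among the blood cell members below. Among the other members listed for blood cell development, 0 of 5 tested passed and 0 had an unadjusted p under 0.05. Over all genes tested the shares were 17.1% and 32.7%. All 5 had a negative sign, though ZBTB1 turned to 0.020 without shACSS2 replicate 2. A negative sign was found for 25 of the 39 members and 8057 of the 16210 genes tested. DESeq2 and limma-voom also called 0 members of the methylated DNA, cell cycle inhibitor and blood cell groups. ZBTB1, needed for lymphocytes, had a log2 fold change of -0.04, ZBTB16 (PLZF) of -0.16, ZBTB24 of -0.14 and ZBTB46, a marker of dendritic cells, of -0.25. ZBTB16 had -0.048 and ZBTB24 -0.24 without shACSS2 replicate 1. ZBTB20 had 0.934, 0.550 and 0.952 CPM in shACSS2, against 1.31, 0.951 and 1.57 CPM in NS (-0.65, SE 0.379, edgeR adjusted p = 0.252). Its SE was the largest of the family, at under 2 CPM in every library, and with the GC and length correction it had -0.29. Of the telomere repeat binders, ZBTB10 fell and ZBTB48 (TZAP) had 0.10 on the log2 scale (edgeR adjusted p = 0.664).

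Among the members not past the test, ZBTB18, ZBTB41 and ZBTB39 were also among the highest in CPM, not scaled to exon length. ZBTB18 had 84.4, 79.1 and 83.8 CPM in shACSS2, against 81.5, 73.8 and 71.8 CPM in NS (log2 fold change 0.12, edgeR adjusted p = 0.398). ZBTB41 had 59.8, 35.2 and 35.9 CPM in shACSS2, against 49.6, 42.9 and 46.7 CPM in NS (-0.09, edgeR adjusted p = 0.748). In ZBTB41 the first shACSS2 library lay above every NS library and the others below, and without it ZBTB41 passed at -0.38 (adjusted p = 0.0076). With the GC and length correction ZBTB41 had 0.042 (edgeR adjusted p = 0.829). ZBTB39 had 38.6, 49.4 and 40.8 CPM in shACSS2, against 46.8, 39.5 and 43.2 CPM in NS (-0.01, edgeR adjusted p = 0.971).

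The pattern within the shACSS2 group followed GC content closely. The log2(CPM + 0.5) of shACSS2 replicate 1 minus the mean of replicates 2 and 3 had a Spearman correlation of -0.83 with GC content over the 39 members, and of -0.62 over 16201 genes. These genes share the libraries, so the correlations are descriptions. Of 21 members with GC under 45%, 20 were higher in replicate 1, with a median difference of 0.27. Of 11 members with GC of at least 55%, 0 were higher, with a median of -0.32. The fold change between shACSS2 and NS had a Spearman correlation with GC of 0.12 over the members and -0.01 over all genes. Members ran from 32.5% to 65.4% GC, with a median of 43.7% against 48.6% over all genes.

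**Figure D4:**
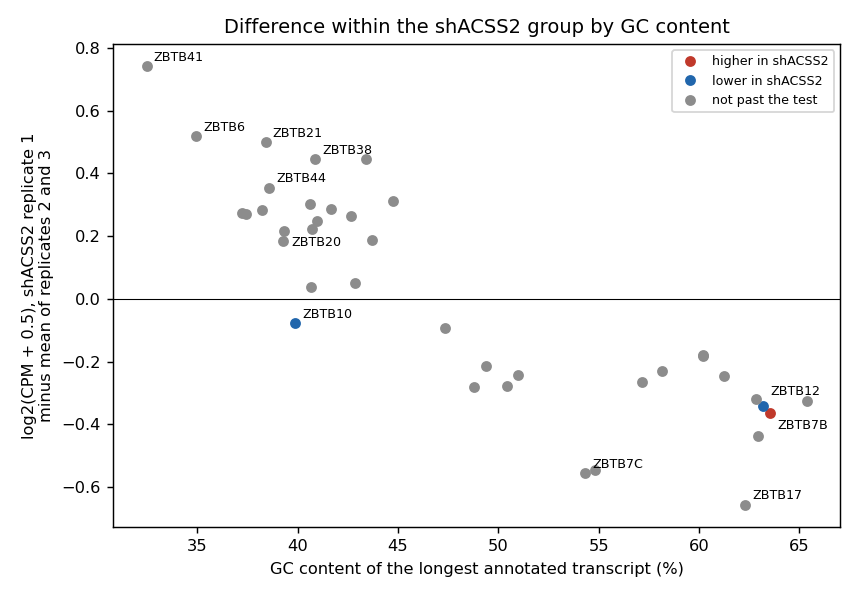
Difference between shACSS2 replicate 1 and the mean of replicates 2 and 3, in log2(CPM + 0.5), against GC content of the longest transcript for the 39 tested ZBTB genes. Points fall from upper left to lower right, with 20 of 21 members above 0 under 45% GC and 0 of 11 above 0 at 55% GC or more.

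Members called without shACSS2 replicate 1 numbered 10 of 39, or 25.6%, while the share over all genes was 23.5%. Higher were ZBTB7B, ZBTB5, ZBTB7A and ZBTB17, and lower were ZBTB44, ZBTB38, ZBTB10, ZBTB41, ZBTB21 and ZBTB37. ZBTB21 had -0.37 without that library (edgeR adjusted p = 0.00848), against -0.19 with all libraries (0.348). With the GC and length correction ZBTB21 had -0.12 (edgeR adjusted p = 0.359). A correction for GC content and length in each library called 7 members, or 17.9%, against 28.3% of all genes, with ZBTB7B, ZBTB7A, ZBTB6 and ZBTB5 higher and ZBTB12, ZBTB10 and ZBTB49 lower. ZBTB10, ZBTB7B, ZBTB7A and ZBTB5 were called under both. Leaving out shACSS2 replicate 2, NS replicate 1 or NS replicate 3 left 0 members past the test, at 11.7%, 6.15% and 6.98% of all genes. At an unadjusted p under 0.05 edgeR then found 5, 7 and 7 members.

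**Figure D5:**
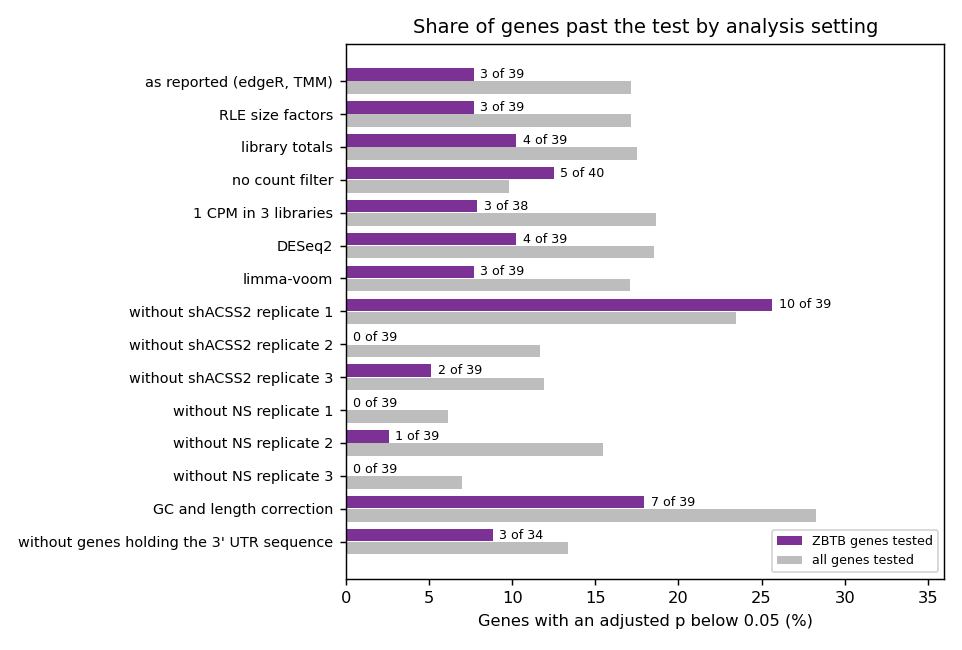
Percentage of ZBTB genes and of all genes tested with an adjusted p below 0.05 under each analysis setting. The members reach 25.6% without shACSS2 replicate 1 and 0 under 3 of the settings that leave out 1 library.

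Several members lie beside each other in the genome. ZBTB6 and ZBTB26 on chromosome 9 are 2235 bases apart on the same strand, with log2 fold changes of 0.37 and 0.15. ZBTB25 and ZBTB1 on chromosome 14 overlap by 1502 bases on opposite strands, 507 of them in exons, with -0.13 and -0.04. ZBTB43 and ZBTB34 on chromosome 9 are 22454 bases apart, with -0.04 and 0.01. ZBTB8B and ZBTB8A on chromosome 1 are 42740 bases apart, with -0.20 and 0.14. No member of these pairs passed the test. Without shACSS2 replicate 1, ZBTB26 had 0.049, ZBTB25 -0.24, ZBTB8B -0.37 and ZBTB8A 0.065. Strandedness of the counts is likewise not given in the sources used here, so reads in overlapping exons may belong to either gene.

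In 5 members at least 1 of 2 overlapping sequences of 7 bases, ATGCTCA or TGCTCAA, occurs in their longest annotated 3′ UTR. The sequences were picked from the fold changes of these same libraries, so their link with the falls is a description. They occurred in 43.9% of the genes that fell, 6.75% of those that rose and 18.0% of all genes tested with such a UTR. The median 3′ UTR was 2228.5 bases in the genes that fell and 938 bases in those that rose. A longer UTR has more room for a match, and the part of length in these shares was not tested. Among the ZBTB genes the sequences occurred in 12.2% of 41 and in 0 of the 3 genes called, although the median 3′ UTR of the tested members was 2742 bases, against 1393 bases over all genes. The windows are shown because they are the sites by which the family would fall in with that set. The bases matched are in capitals, all are transcript strand, 5′ to 3′ (GENCODE v29, GRCh38).
ZBTB40, chr1:22528073-22528101, plus strand: ccagaagatggTGCTCAAacctttaagac
ZBTB26, chr9:122918580-122918608, minus strand: gtaggggcttcATGCTCAcaactcgaact
ZBTB8A, chr1:32604296-32604325, plus strand: gtttcctaaagATGCTCAAatttaagggat
ZBTB46, chr20:63745858-63745886, minus strand: cctttagcttgTGCTCAAgtcctcttgct
ZBTB20, chr3:114316423-114316451, minus strand: aacaaaatcagATGCTCAttacaaatcca
ZBTB20, chr3:114316404-114316432, minus strand: tacaaatccagATGCTCAttacaaaacca
The log2 fold changes of the holders were -0.16 for ZBTB40, 0.15 for ZBTB26, 0.14 for ZBTB8A, -0.25 for ZBTB46 and -0.65 for ZBTB20, none past the test. ZBTB40 had -0.078 and ZBTB20 -0.75 without shACSS2 replicate 1. Their median was -0.16, against -0.04 for the members without the sequence. Over all genes tested it was -0.16 with and 0.05 without. A match names letters in a UTR and no binding.

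Genes that work with ZBTB proteins were read from 3 lists. The other BTB zinc finger genes, whose symbols do not start with ZBTB, gave 0 calls of 8 in edgeR, against 17.1% of all genes. At an unadjusted p under 0.05 there were 0 of 8, against 32.7% of all genes. DESeq2 and limma-voom called 0 of these genes, and their median log2 fold change was 0.04. BCL6B had 0.25 (edgeR adjusted p = 0.196) and GZF1 -0.12 (0.494). Of 18 corepressor and turnover genes, 1 rose and 2 fell, with a median of -0.09. That is 16.7% called, near the 17.1% of all genes. At an unadjusted p under 0.05 edgeR found 3 of 18, or 16.7%, against 32.7% of all genes. NCOR1, the corepressor that many BTB domains bind, had 108, 111 and 111 CPM in the shACSS2 libraries, against 155, 138 and 142 CPM in the NS libraries (log2 fold change -0.40 with an SE of 0.0921, adjusted p = 0.00893 in edgeR). BCOR, bound by BCL6, averaged 288 ± 28.7 CPM in shACSS2 and 363 ± 15.98 CPM in NS (SD, n = 3 each; -0.33, edgeR adjusted p = 0.0289). HDAC1, a histone deacetylase, averaged 461 ± 23.2 CPM in shACSS2 and 375 ± 23.7 CPM in NS (SD, n = 3 each; 0.30, edgeR adjusted p = 0.0369). CUL3 had a log2 fold change of 0.09. The call of NCOR1 ended without NS replicate 1 (adjusted p = 0.0808). BCOR lost its call without shACSS2 replicate 3 or NS replicate 1 or 3, and HDAC1 without shACSS2 replicate 2 or 3, NS replicate 1 or 3, with library totals (adjusted p = 0.0809), or without the genes that hold the 3′ UTR sequence (0.061).

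Of 10 tested target and partner genes reported for ZBTB factors, 2 fell and 8 did not pass, or 20% called, also near the 17.1% of all genes. At an unadjusted p under 0.05 edgeR found 5, or 50%, against 32.7% of all genes. CPM of the groups did not overlap in 7, or 70%, against 36.3% of all genes. The list is short and was chosen with earlier results of these data known, so these shares are descriptions. CTNND1 (p120 catenin, the partner of Kaiso) averaged 125 ± 9.30 CPM in shACSS2 and 158 ± 11.1 CPM in NS (SD, n = 3 each; log2 fold change -0.34, edgeR adjusted p = 0.027). SP4, of the SP family that ZBTB10 is known to repress, averaged 13.3 ± 2.65 CPM in shACSS2 and 18.5 ± 0.557 CPM in NS (SD, n = 3 each; -0.47, edgeR adjusted p = 0.035). ZBTB10 and SP4 were thus both lower in shACSS2. SP1 had -0.19 (edgeR adjusted p = 0.153). Of the MIZ-1 targets, CDKN1A had -0.31 (0.0766) and CDKN2B 0.43 (0.0763), values of opposite sign. Both CTNND1 and SP4 hold the 7-base sequence. The call of SP4 ended without any single library other than shACSS2 replicate 1, and that of CTNND1 without shACSS2 replicate 2 or 3 or NS replicate 1 or 3. HBG1, HBG2 and AFP had at most 1 count a library and were not tested.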

How the data were processed

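The authors deposited whole-number read counts per gene, not normalised; per the submitters' processing notes fastp, HISAT2 2.0.5, featureCounts 1.5.0-p3, DESeq2 (given as 4.3.1) and hg19 were used. Strandedness and multiple matches are points not given in the sources used here. Each of the 58735 identifiers matched GENCODE v29, an annotation of GRCh38, from which positions, exon lengths, GC content and UTRs were taken, so the build of the alignment is unclear. The 7-base sequences were searched on the transcript strand.

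The quasi-likelihood test of edgeR 4.0.16 (R 4.3.3) was run on the counts (TMM, filterByExpr by group, robust fit, group as the only term, Benjamini-Hochberg adjustment over 16210 genes, 0.05). The SE of a log2 fold change is its size divided by the root of the F statistic. The pipeline was tested on simulated data. Chi-square per degree of freedom between libraries of a group ran from 4.28 to 17.3, so none was a copy of another. Each was counted as a replicate by its label. Alternatives were DESeq2 1.42.0, limma-voom 3.58.1, other scalings and filters, libraries left out, a replicate block and a GC and length correction. Named were all members past the test, the 5 with the smallest p and the 5 with the highest CPM of the others, and the leading genes of each list; further members were named after their values were seen. Some list and marker genes are not reported here. The members and lists were chosen with earlier results of these data known.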

Additional observations from a re-analysis of the deposited data

How the results depend on the processing

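The members past the test numbered 3 with RLE factors, limma-voom and a minimum of 1 CPM in 3 libraries, and the same 3 genes were called in each. DESeq2, library totals and the replicate block each added ZBTB44, the block at an adjusted p of 0.0344, and the block called 2923 genes in all. Deviations from the group means correlated at -0.04, -0.07 and 0.11 between same-numbered libraries. The best correlation of shACSS2 replicate 1 was with NS replicate 2 (0.16). The deviations carry the GC pattern of shACSS2 replicate 1, so they do not settle whether the numbers pair the samples. With no count filter, 2 members were higher and 3 lower. The GC and length correction gave 4 members higher, 6 corepressor genes, 5 target genes and 4585 genes in all, and with the replicate block 4, 6, 5 and 4751. Without genes holding the 3′ UTR sequence, an alternative chosen after seeing the data, 1844 genes and 0 target genes passed, since both called targets hold the sequence and were removed. With 1 library left out, calls ran from 1018 to 3931 over all genes, 0 to 4 for members higher, 0 to 6 for members lower, 0 to 3 for corepressors and 0 to 6 for targets. The cause of the other shifts was not tested. Signs turned for ZBTB34 (-0.062 with library totals, -0.014 without UTR-sequence genes). Under the GC correction, ZBTB41 (0.042), ZBTB39 (0.034), ZBTB25 (0.012), ZBTB11 (0.021) and ZBTB43 (0.0061) turned, and with the block they had 0.024, 0.031, 0.012, 0.021 and 0.013. The median over all genes tested was itself -0.070 with library totals and 0.044 under the GC correction, with or without the block, against 0.0025 as reported. No value that turned under library totals or the GC correction was larger in size than the median of its setting. With 1 library left out, log2 fold changes ran from -0.12 to 0.063 in ZBTB39, -0.14 to 0.14 in ZBTB3, -0.079 to 0.10 in ZBTB34, -0.12 to 0.045 in ZBTB33, -0.38 to 0.046 in ZBTB41, -0.24 to 0.0025 in ZBTB25, -0.019 to 0.35 in ZBTB17, -0.067 to 0.28 in ZBTB7C, -0.13 to 0.020 in ZBTB1, -0.12 to 0.023 in ZBTB11 and -0.17 to 0.060 in ZBTB43. At 3 libraries a group, the median SE of a member's log2 fold change was 0.13.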

Other observations

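ZBTB8OS shares a name and a locus with ZBTB8A but is no ZBTB factor: it encodes archease, a cofactor of the tRNA ligase complex. It had 46.7, 38.1 and 34.9 CPM in the shACSS2 libraries, against 32.8, 30.9 and 26.2 CPM in the NS libraries, and the groups did not overlap. It rose (log2 fold change 0.41, SE 0.128, edgeR adjusted p = 0.0369), and 179 of its exon bases lie opposite ZBTB8A exons. The call ended with library totals (adjusted p = 0.07) and without genes holding the 3′ UTR sequence (0.0569). It also ended without shACSS2 replicate 1 or 2, or NS replicate 1, 2 or 3, at adjusted p of 0.0503 to 0.180.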
